A study of Mus musculus with 14 samples.

Results

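Hypoxia and glycolysis genes were taken as a fixed list of 38 symbols. It covers glucose uptake and glycolysis, lactate and pyruvate handling, oxygen sensing and well-known targets of the hypoxia-inducible transcription factors (HIFs). A gene was measured where a probe set carried its symbol and no other. This held for 36 of the 38 genes on at least 1 array design: 33 of the 22180 genes of the first design and 36 of the 19938 genes of the second. Aldoa, Bnip3l and Ankrd37 were measured on the second design only, and Eno1 and Gpi1 were not analysed here. Ero1l is listed under its current symbol Ero1a. All 33 genes of the first design lay above the level below which the dimmest 25% of genes were left out.

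The tumours grew in C57BL/6 mice from B16-F10, a pigmented melanoma line of that strain. The labels give 3 sublines: control, called sensitive to radiation with CTLA4 blockade, and Res 499 and Res 177, both called resistant. The treatment text, which is the same for every sample, describes cells injected in Matrigel into both flanks, 20 Gy to the right tumour on day 8 and a CTLA4-blocking antibody on days 5, 8 and 11. The labels do not say which flank was sampled, whether a measured tumour was treated, or how many clones a subline holds. Separate mice are not stated either, and p-values can therefore speak only to the scatter among the tumours measured, which may be technical in part. The first design held 4 control tumours (replicates 2 to 5), 7 Res 499 tumours (replicates 1 to 7) and 1 Res 177 tumour (replicate 2). The second held 1 control tumour and 1 Res 177 tumour, both replicate 1. The labels number no replicates, so these numbers follow the order of the sample list and only name a tumour.

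Cells short of oxygen stop hydroxylating the HIF alpha subunits, which are otherwise marked by prolyl hydroxylases and degraded through the VHL ligase. The stabilised subunit pairs with ARNT, binds DNA at short core motifs and raises transcription of glucose transporters, glycolytic enzymes, angiogenic factors and mitophagy receptors, together with some of the hydroxylases that degrade it. Because the alpha subunits are controlled mainly as proteins, their mRNA levels do not report their activity. B16-F10 tumours, like many melanomas, are glycolytic, and their RNA also holds that of infiltrating immune and stromal cells, so that in these bulk samples fewer cells of a type and less RNA per cell cannot be told apart.

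Promoter sequences of 5 members are given because their values frame the results: Bnip3, Ddit4 and Slc2a1 lay low together in the same Res 499 tumours, Egln3 varied most and Pgk1 varied least. The windows run from 250 bases before to 50 bases after the RefSeq start on GRCm38.p6, 5′ to 3′ on the gene's strand. They lie at chr7:138909457-138909756 (minus strand) for Bnip3, chr10:59951721-59952020 (minus) for Ddit4, chr4:119108495-119108794 (plus) for Slc2a1, chr12:54203825-54204124 (minus) for Egln3 and chrX:106186850-106187149 (plus) for Pgk1. Capitals mark the HIF core motif in both its forms, ACGTG and GCGTG, and their reverse complements CACGT and CACGC.
Bnip3: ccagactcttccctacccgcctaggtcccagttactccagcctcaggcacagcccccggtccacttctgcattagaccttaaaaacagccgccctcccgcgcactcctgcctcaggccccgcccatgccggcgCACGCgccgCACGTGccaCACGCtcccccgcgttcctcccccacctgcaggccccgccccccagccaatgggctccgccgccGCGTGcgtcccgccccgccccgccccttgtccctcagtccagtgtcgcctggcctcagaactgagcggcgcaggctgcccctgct
Ddit4: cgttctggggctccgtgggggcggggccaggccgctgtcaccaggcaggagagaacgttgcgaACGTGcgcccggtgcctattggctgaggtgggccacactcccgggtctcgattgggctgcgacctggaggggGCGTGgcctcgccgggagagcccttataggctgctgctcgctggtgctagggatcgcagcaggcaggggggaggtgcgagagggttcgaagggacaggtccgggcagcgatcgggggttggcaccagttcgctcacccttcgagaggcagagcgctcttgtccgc
Slc2a1: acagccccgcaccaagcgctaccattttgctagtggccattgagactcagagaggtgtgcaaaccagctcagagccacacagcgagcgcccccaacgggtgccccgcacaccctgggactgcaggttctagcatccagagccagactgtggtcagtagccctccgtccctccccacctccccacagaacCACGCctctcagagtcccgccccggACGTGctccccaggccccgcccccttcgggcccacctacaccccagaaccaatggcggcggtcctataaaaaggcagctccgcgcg
Egln3: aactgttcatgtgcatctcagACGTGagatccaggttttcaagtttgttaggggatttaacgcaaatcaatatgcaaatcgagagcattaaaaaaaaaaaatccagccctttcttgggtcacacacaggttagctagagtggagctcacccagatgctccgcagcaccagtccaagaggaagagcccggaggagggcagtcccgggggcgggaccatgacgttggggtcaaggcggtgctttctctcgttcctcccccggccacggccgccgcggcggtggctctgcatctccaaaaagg
Pgk1: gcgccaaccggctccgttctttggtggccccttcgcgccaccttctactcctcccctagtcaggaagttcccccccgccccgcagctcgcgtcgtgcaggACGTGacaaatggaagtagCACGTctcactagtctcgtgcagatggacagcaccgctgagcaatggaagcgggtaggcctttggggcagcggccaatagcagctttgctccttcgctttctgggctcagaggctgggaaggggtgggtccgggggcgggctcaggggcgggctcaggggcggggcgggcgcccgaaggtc
The Bnip3 window held 5 matches, of which CACGT and ACGTG overlap in a single palindrome. The windows of Ddit4, Slc2a1 and Pgk1 held 2 each and that of Egln3 held 1. Of the 36 measured members, 32 had a window in the RefSeq table, and Bhlhe40, Bnip3l, Epas1 and Ndrg1 did not. On either strand, ACGTG stood in a window of 24 of these 32 genes (75.0%), against 4065 of 17492 protein-coding genes (23.2%). With GCGTG included, 30 of 32 (93.8%) had a match, against 52.3% of protein-coding genes. A gene with several starts counted once if any of its windows held the motif. The genes were listed as known HIF targets and as enzymes of a pathway they control, so these shares describe the list, and a match is not evidence of binding.

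Values are log2 expression, 1 per gene and tumour, and changes are log2 differences with their standard error (SE). Because probes differ in brightness, levels are compared between tumours for 1 gene and not between genes. Melanocyte lineage markers such as Pmel, Tyr and Dct were bright in all 12 tumours, with list means from 11.86 to 12.42. Leukocyte content, the mean of Ptprc, Cd53, Laptm5, Lcp1 and Coro1a, ran from 6.59 to 7.08 in the control tumours and stood at 7.79 in the Res 177 tumour. In the 7 Res 499 tumours it was 8.07, 8.38, 8.37, 7.10, 8.03, 7.07 and 6.49 in replicate order, so that replicates 1, 2, 3 and 5 stood above all controls by a wide margin. Res 499 replicates 5 and 2 also had the lowest array weights (0.465 and 0.573), and replicate 5 had the highest adipocyte markers, at 7.94 against 6.17 to 6.72 in the other tumours.

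In Res 499 against control tumours, no hypoxia or glycolysis gene passed the test. The count was 0 of 33, where 59 of the 16635 genes tested (0.355%) passed limma's moderated test at a Benjamini-Hochberg adjusted p of 0.05. At an unadjusted p under 0.05 there were 8 of 33 members (24.2%), against 13.0% of all genes. Of these, 7 were lower in Res 499 (21.2%, against 6.29% of all genes) and 1 was higher (3.03%, against 6.68%). Most changes were small and negative: 25 of 33 (75.8%) lay below 0, against 48.3% of all genes, with a median of -0.13 against 0.01 over all genes. For all 33 members the ranges of the 2 groups overlapped, while 2.39% of all genes had ranges that did not overlap. For 4 members (12.1%, against 7.9% of all genes) at least 5 Res 499 tumours lay below every control, and for 0 members (against 9.38%) did as many lie above. Immune markers were higher in part of the same Res 499 tumours. All 17 measured macrophage and monocyte markers had positive changes, against 8603 of 16635 genes tested, although 0 of the 17 passed. Their list mean ran from 6.64 to 7.12 in control and from 6.47 to 8.61 in Res 499 tumours. Res 499 replicates 4, 6 and 7, at 7.02, 6.82 and 6.47, did not exceed the highest control. With leukocyte content as a covariate the median of the 33 changes was 0.01, with 17 positive and 16 negative.

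**Figure D1:**
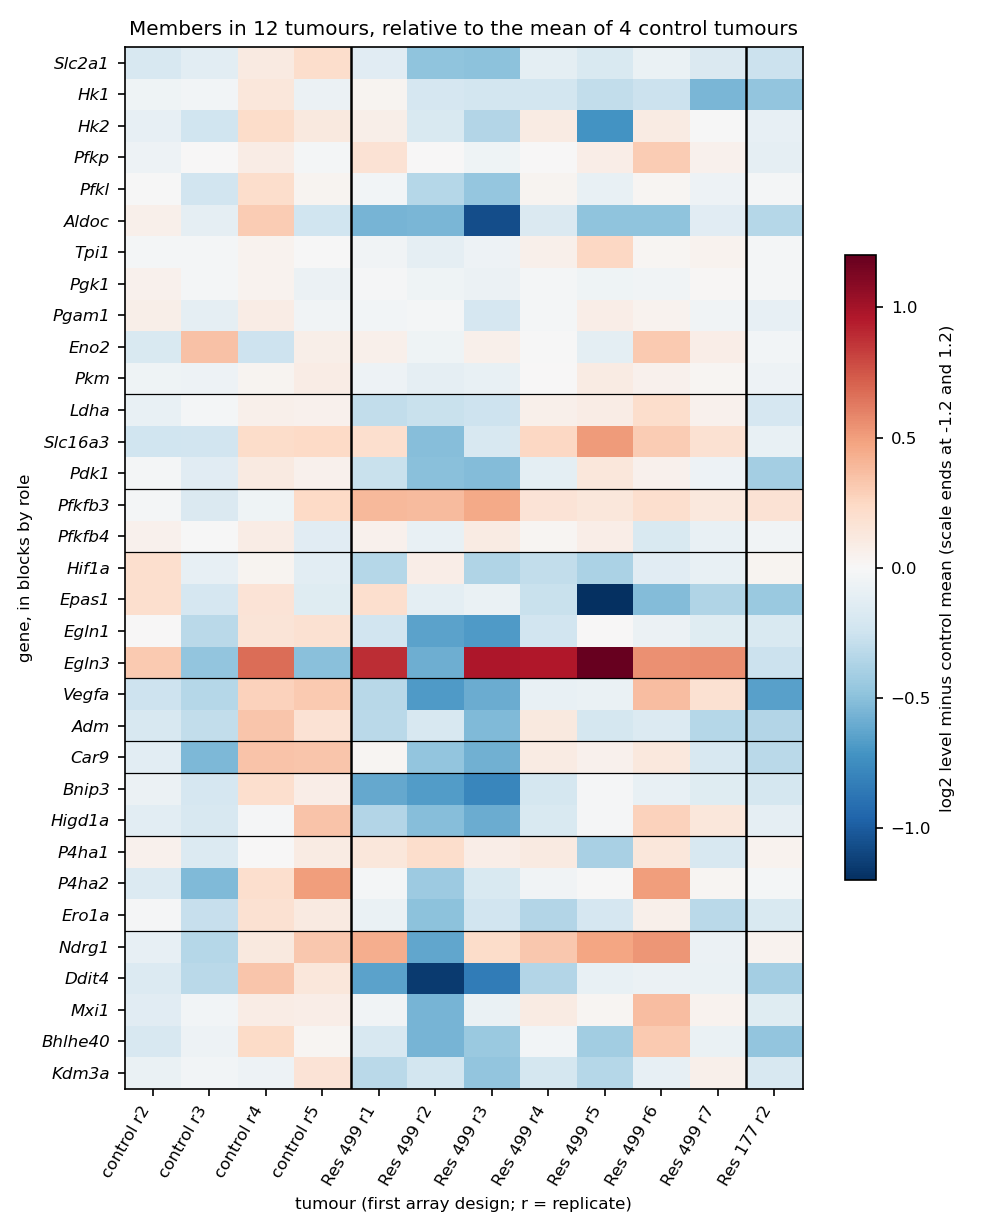
Log2 level of each of the 33 members (rows, in blocks by role) in each of the 12 tumours of the first design (columns), minus the mean of the 4 control tumours. Blue runs down the columns of Res 499 replicates 2 and 3, whose median member stood at -0.34 and -0.23, and the deepest colours are those of Epas1 (-1.30) and Egln3 (1.27) in Res 499 replicate 5.

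Of the 11 measured members for glucose uptake and glycolysis, 8 had negative changes, with a median of -0.03, and Aldoc had the lowest change of all 33 members. Aldoc, the brain-type aldolase that splits fructose bisphosphate, lay at 11.05, 10.88, 11.29 and 10.74 in control replicates 2, 3, 4 and 5. In Res 499 tumours its lowest, median and highest levels were 9.93, 10.51 and 10.85. In 5 of 7 Res 499 tumours it was below every control, and replicate 3 stood lowest. The change of -0.49 (SE 0.16, 95% interval -0.83 to -0.15) did not pass (adjusted p = 0.208, limma with Benjamini-Hochberg adjustment), and it was -0.23 with leukocyte content as a covariate. Hk1, the housekeeping hexokinase that traps glucose in the cell, lay at 9.29, 9.32, 9.49 and 9.28 in control tumours and at 8.80, 9.12 and 9.37 (lowest, median, highest) in Res 499. It was below all controls in 6 of 7 Res 499 tumours, with replicate 1 the exception, and its change was -0.25 (SE 0.09, limma adjusted p = 0.275). Unlike Aldoc, Hk1 had a larger negative value with the leukocyte covariate, -0.35 (adjusted p = 0.21).

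Slc2a1, the main glucose transporter induced by HIF, lay at 12.05, 12.11, 12.34 and 12.44 in control tumours. Its Res 499 levels ran from 11.75 through a median of 12.06 to 12.15, inside the lower part of the control range except in replicates 2 and 3, both at 11.75. The change was -0.24 (SE 0.11, limma adjusted p = 0.37). Hk2, the hypoxia-inducible hexokinase, lay at 10.75, 10.61, 11.07 and 10.97 in control tumours and at 10.13, 10.85 and 10.96 (lowest, median, highest) in Res 499. Its lowest value came from replicate 5, and its change of -0.14 (SE 0.15) was well within the spread. The phosphofructokinases Pfkp and Pfkl, which commit sugar to glycolysis, had changes of 0.08 (SE 0.07) and -0.13 (SE 0.11).

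In the lower steps of glycolysis the groups overlapped closely. Pgk1, which makes the first ATP of the pathway, lay at 13.57, 13.51, 13.56 and 13.46 in control tumours and from 13.46 to 13.54 in Res 499 tumours, with a median of 13.49. The groups overlapped almost fully and the change was -0.03 (SE 0.05, 95% interval -0.14 to 0.08). Its standard deviation (SD) over the 12 tumours, 0.04, was the smallest of the members, followed by Pkm, the pyruvate kinase of muscle and tumour cells, at 0.07, and Tpi1, the triose phosphate isomerase, at 0.09. Their probe sets lie at the bright end of the array, where the median SD of all genes was 0.10. Pgam1, a phosphoglycerate mutase, and Eno2, the neuronal enolase, had changes of -0.03 and 0.05, and those of Tpi1 and Pkm were 0.02 and -0.01. Another probe set of Pgam1 gave the opposite sign, 0.05.

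In lactate and pyruvate handling, single Res 499 tumours lay on both sides of the controls. Ldha, which reduces pyruvate to lactate, lay at 10.19, 10.26, 10.33 and 10.32 in control tumours. In Res 499 it ran from 9.97 to 10.49 with a median of 10.33: replicates 1, 2 and 3 were below all controls and replicates 4, 5 and 6 above them. The mean change was -0.06 (SE 0.10) and turned to 0.12 with the leukocyte covariate. Pdk1, a kinase that inhibits pyruvate dehydrogenase, lay at 9.76, 9.64, 9.89 and 9.82 in control tumours. In Res 499 its lowest, median and highest levels were 9.26, 9.65 and 9.91. Again Res 499 replicates 1, 2 and 3 were below all controls, and the change was -0.18 (SE 0.13). Slc16a3, the hypoxia-induced lactate exporter, had a change of 0.11 (SE 0.18).

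Pfkfb3, which makes the sugar bisphosphate that activates phosphofructokinase, had the highest change of the 33 members after Egln3. It lay at 7.09, 6.93, 7.06 and 7.35 in control tumours and at 7.24, 7.31 and 7.56 (lowest, median, highest) in Res 499. All 7 Res 499 tumours were above 3 of the 4 controls, and replicates 1, 2 and 3 were above control replicate 5 as well. Its change of 0.27 (SE 0.09, 95% interval 0.06 to 0.47) did not pass (limma adjusted p = 0.247), and was 0.14 with the leukocyte covariate. The related Pfkfb4 had a change of -0.02 (SE 0.07).

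**Figure D2:**
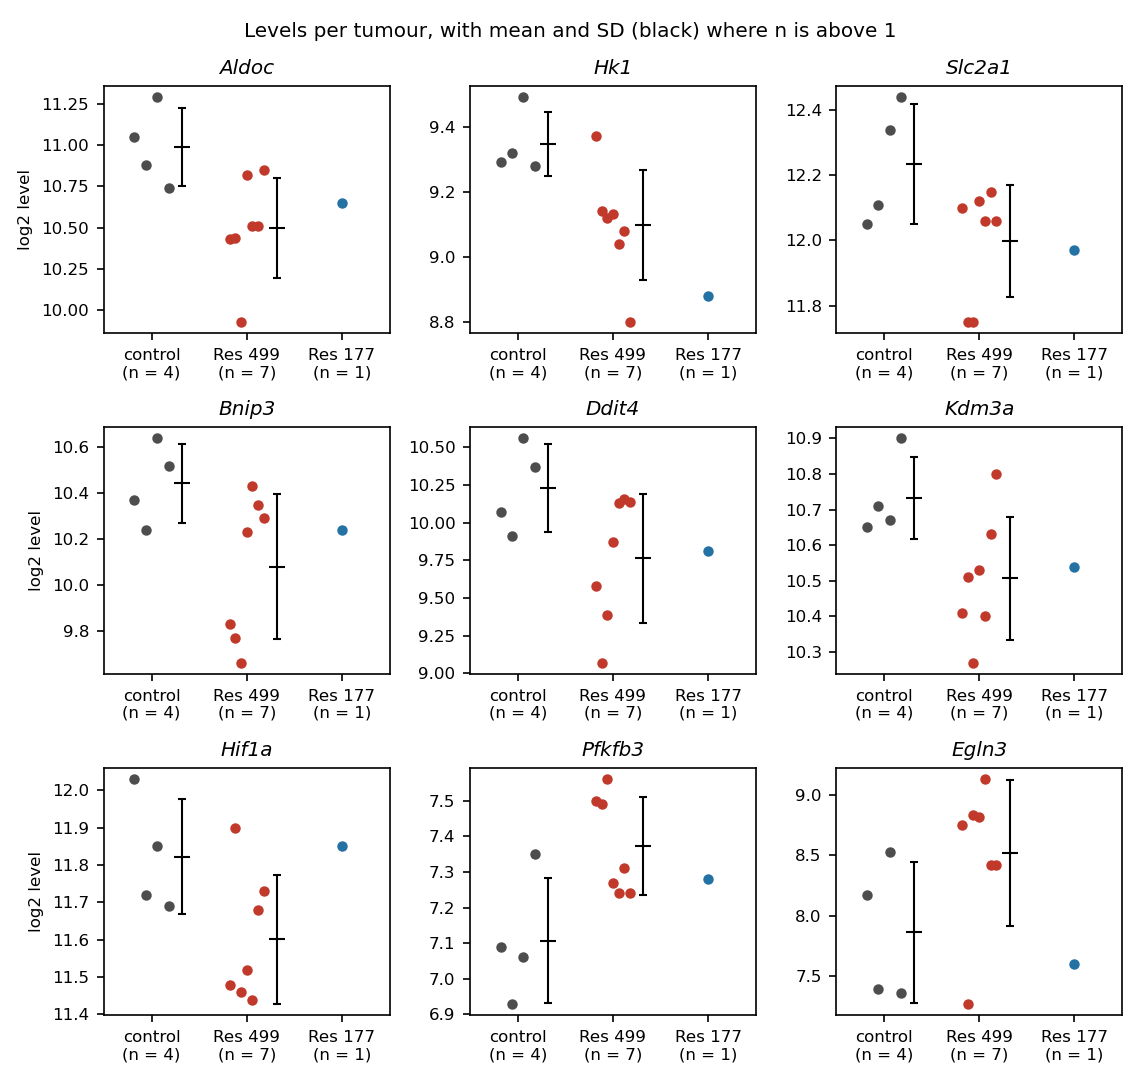
Log2 level (vertical axis) of 9 members in every tumour of the first design, by group (4 control, 7 Res 499 and 1 Res 177 tumour), with the mean and SD in black beside groups of more than 1. The control and Res 499 ranges overlap in every panel. Aldoc, Hk1, Kdm3a and Hif1a have 5 or 6 of 7 Res 499 tumours below the lowest control. The Res 177 tumour lies below the lowest control for Aldoc, Hk1, Slc2a1, Bnip3, Ddit4 and Kdm3a.

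Among the genes of oxygen sensing, Hif1a, the alpha subunit found in most cells, lay at 12.03, 11.72, 11.85 and 11.69 in control tumours. Its Res 499 levels ran from 11.44 through 11.52 to 11.90, and 5 of 7 tumours were below all controls while replicates 2 and 7 lay within the control range. The change was -0.22 (SE 0.10, limma adjusted p = 0.383), and -0.20 with the leukocyte covariate. Another probe set of Hif1a, with a control mean of 6.24 against 11.82, gave 0.05. Epas1, which encodes the HIF alpha subunit best known from endothelium and macrophages, lay at 8.44, 8.03, 8.39 and 8.08 in control tumours and at 6.93, 7.97 and 8.44 (lowest, median, highest) in Res 499. The low value was that of replicate 5, the tumour with the highest adipocyte markers, and the change was -0.35 (SE 0.22).

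Egln1, the main prolyl hydroxylase that marks HIF for degradation, lay at 11.03, 10.70, 11.17 and 11.20 in control tumours and at 10.34, 10.80 and 11.03 (lowest, median, highest) in Res 499. Only replicates 2 and 3 were below all controls, and the change was -0.28 (SE 0.15). Egln3, the prolyl hydroxylase most strongly induced by hypoxia, was high in most Res 499 tumours. Its control levels were 8.17, 7.39, 8.53 and 7.36, and those of Res 499 replicates 1 to 7 were 8.75, 7.27, 8.83, 8.82, 9.13, 8.42 and 8.42. In all, 4 Res 499 tumours were above all controls, 2 lay just under the highest control, and replicate 2 was below all 4. The mean change was 0.66 (SE 0.32, 95% interval -0.04 to 1.36, limma adjusted p = 0.412). Without replicate 2 it was 0.87 (limma adjusted p = 0.103), which was still short of the threshold. Egln3 thus had the highest change of the 33 members, and also the largest SD, 0.66 over 12 tumours.

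Among the secreted and surface targets of HIF, the groups overlapped widely. Vegfa, which drives growth of blood vessels, lay at 11.05, 10.96, 11.58 and 11.62 in control tumours and at 10.63, 11.21 and 11.67 (lowest, median, highest) in Res 499. Replicates 2 and 3 were below all controls and replicate 6 above them, and the change was -0.17 (SE 0.20). Adm, the vasodilator adrenomedullin, had a change of -0.23 (SE 0.13). Car9, a surface carbonic anhydrase of acid-base control, lay at 10.97, 10.56, 11.44 and 11.43 in control tumours and at 10.52, 11.12 and 11.23 in Res 499 in the same order as before. Its ranges overlapped almost fully, with a change of -0.13 (SE 0.19).

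Bnip3, a receptor that sends mitochondria to autophagy under hypoxia, lay at 10.37, 10.24, 10.64 and 10.52 in control tumours. Res 499 replicates 1 to 7 lay at 9.83, 9.77, 9.66, 10.23, 10.43, 10.35 and 10.29. The first 3 of these stood apart below all controls, replicate 4 lay just under the lowest control and replicates 5, 6 and 7 lay within the control range. The change was -0.36 (SE 0.16, limma adjusted p = 0.349), and -0.12 with the leukocyte covariate. Higd1a, a mitochondrial protein that helps cells endure low oxygen, was likewise lowest in replicates 1, 2 and 3, with a change of -0.18 (SE 0.17).

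Ddit4, which restrains mTOR signalling when oxygen or energy is short, lay at 10.07, 9.91, 10.56 and 10.37 in control tumours. Its levels in Res 499 replicates 1 to 7 were 9.58, 9.07, 9.39, 9.87, 10.13, 10.16 and 10.14. As with Bnip3, replicates 1, 2 and 3 were far below the controls and the later ones at or near the control range. The change was -0.46 (SE 0.21, limma adjusted p = 0.384), and -0.11 with the leukocyte covariate. Endothelial markers (10 genes) were highest in the same 3 tumours, with list means of 8.48, 8.33 and 8.38 against 7.78 to 8.13 in the other 9. Fibroblast and matrix markers were highest there too, at 8.15, 8.31 and 8.38 against 6.55 to 7.96. With endothelial markers as a covariate, chosen after seeing the data, 22 of the 33 changes were negative with a median of -0.05, and that of Ddit4 was -0.31 and that of Bnip3 -0.24; with fibroblast markers as one, 21 were negative with a median of -0.08. Kdm3a, a histone demethylase induced by HIF, lay at 10.65, 10.71, 10.67 and 10.90 in control tumours and at 10.27, 10.51 and 10.80 (lowest, median, highest) in Res 499. It was below all controls in 6 of 7 Res 499 tumours, and the change was -0.23 (SE 0.10, limma adjusted p = 0.335).

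Ndrg1, a stress-response gene strongly induced by hypoxia, lay at 10.33, 10.09, 10.55 and 10.75 in control tumours and at 9.81, 10.75 and 10.97 (lowest, median, highest) in Res 499. Replicates 1, 5 and 6 were above all controls and replicate 2 far below them, for a change of 0.18 (SE 0.20). Bhlhe40, a repressor that also acts in circadian rhythm, had a change of -0.20 (SE 0.15), and Mxi1, an antagonist of MYC, of -0.02 (SE 0.13), or 0.15 by its other probe set. Of the genes for collagen hydroxylation and disulfide formation, Ero1a, the oxidase of the endoplasmic reticulum, had a change of -0.23 (SE 0.11), while the prolyl 4-hydroxylase subunits P4ha1 and P4ha2 had 0.01 and -0.02.

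**Figure D3:**
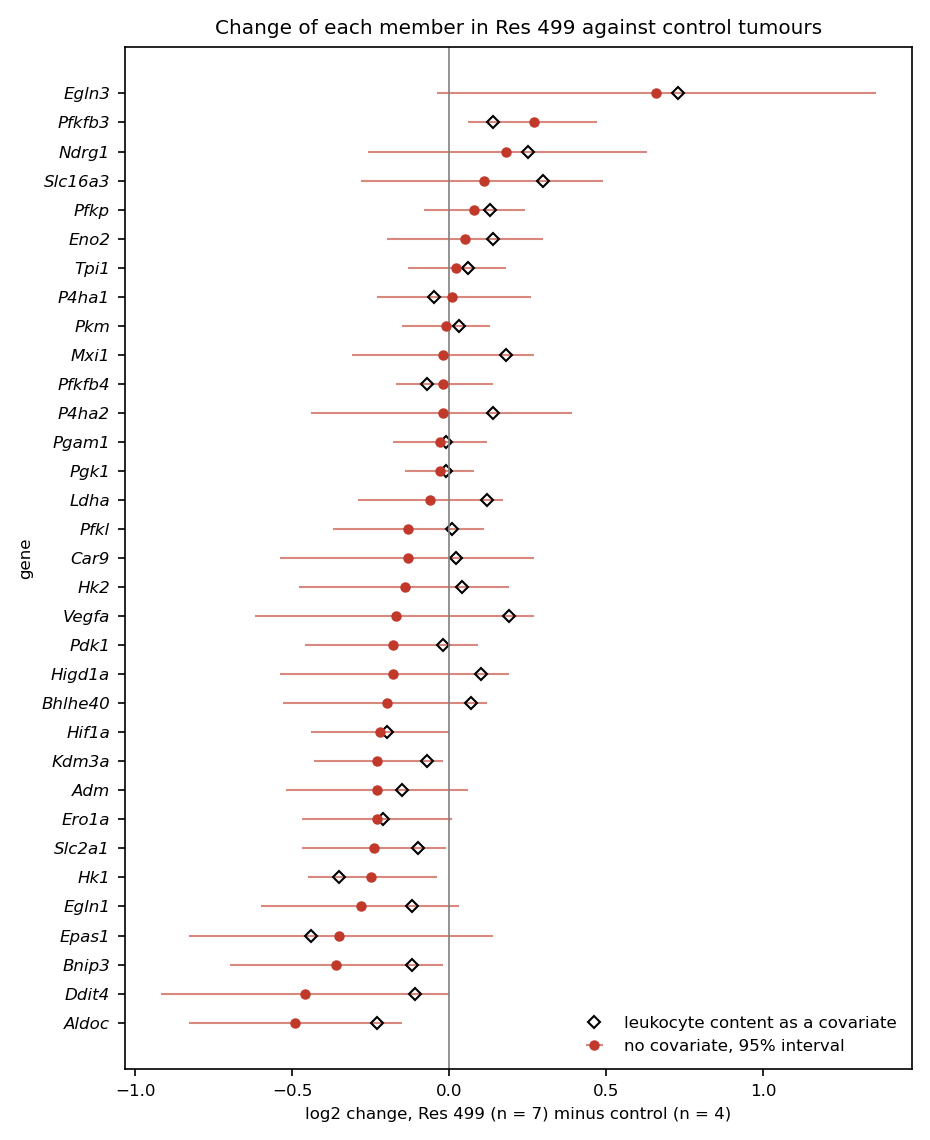
Log2 change of each of the 33 members in Res 499 (n = 7) minus control (n = 4) tumours, with 95% intervals from limma (red), and the change with leukocyte content as a covariate (open diamonds). Most red points lie left of 0 and most diamonds lie to the right of their red point; Hk1, Epas1, Pfkfb3, Pfkfb4 and P4ha1 are among those where the diamond lies to the left.

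The size of the negative median depended in part on single tumours. Res 499 replicate 3 was the lowest of the 12 tumours for 12 of 33 members, although it was lowest for 6.42% of all genes, and replicate 2 was lowest for 10 of 33, against 15.5% of all genes. Control replicate 4 was the highest for 10 of 33 members, against 8.22% of all genes. The median member stood at -0.34 in Res 499 replicate 2 and -0.23 in replicate 3, relative to the control mean, and between -0.06 and 0.05 in the other 5 Res 499 tumours. Control tumours were also spread, from -0.16 in replicate 3 to 0.12 in replicate 4. Leaving out 1 tumour at a time moved the median change from -0.22 without control replicate 3 to -0.06 without control replicate 4 or 5. It was -0.09 without Res 499 replicate 2 and -0.08 without Res 499 replicate 3. In these fits 22 to 26 of the 33 changes were negative, against 25 with all tumours. The number of members at an unadjusted p under 0.05 ranged from 3 without Res 499 replicate 3 to 9 without control replicate 3 or Res 499 replicate 6. It was 4 without control replicate 4 or 5, and 5 without control replicate 2 or Res 499 replicate 1. It was 5 with arrays centred on their medians, 1 with leukocyte content as a covariate and, with marker means added as covariates after seeing the data, 4 for fibroblast or adipocyte and 5 for endothelial markers. The share of all genes at this unadjusted p is not given for these alternatives. These counts therefore cannot be read as particular to the members. Without both tumours of lowest array weight, an alternative chosen after seeing the data, 23 of 33 changes were negative and the median was -0.09.

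Spread from tumour to tumour was also set against that of all genes of like level. Over the 12 tumours the median SD of the 33 members was 0.22, against 0.16 for all genes. At a mean level from 12 to 15, where 5 members lie, it was 0.09 against 0.10 for all genes of that level. From 10 to 12 it was 0.26 (16 members) against 0.15, and from 8 to 10 it was 0.27 (8 members) against 0.18. The most variable members were Egln3 (SD 0.66), Ddit4 (0.42) and Epas1 (0.41). For Pgk1, the member of smallest SD, no relation to 9 other members over the 12 tumours passed a permutation test. Its Pearson r ran from -0.18 with Ndrg1 (Spearman rho -0.29) to 0.54 with Hif1a (rho 0.48), with permutation p-values of 0.58 and 0.0711 and adjusted values of 0.70 and 0.195 over a family of 19 relations, which also holds those with leukocyte content. The p of the largest rho was 0.123. The relation with Hif1a was 0.44 with group means subtracted and 0.13 without control replicates 2 and 4, the tumours farthest from the median of Pgk1.

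Leukocyte content split the 12 tumours into 7 at 7.10 or below and 5 at 7.79 or above, with none between, and no correlation with leukocyte content is given across that gap. The 5 were Res 499 replicates 1, 2, 3 and 5 and the Res 177 tumour, and every control tumour was among the 7. Leukocyte-rich tumours thus differ from the rest in subline too, and these differences cannot be fully told apart here. In the 5 leukocyte-rich tumours Bnip3 ranged from 9.66 to 10.43, and in the rest from 10.23 to 10.64. Res 499 replicate 5, which is leukocyte-rich, had the 10.43, so Bnip3 was not low in every leukocyte-rich tumour. Ddit4 ranged from 9.07 to 10.13 in the leukocyte-rich tumours and from 9.87 to 10.56 in the rest, and Vegfa from 10.63 to 11.22 and from 10.96 to 11.67. Other members differed from this. The lowest and highest levels of Egln3 (7.27 and 9.13) and of Slc16a3 (9.50 and 10.52) both came from leukocyte-rich tumours, Res 499 replicates 2 and 5. Pfkfb3 was highest in the leukocyte-rich Res 499 replicate 3 (7.56) and lowest in control replicate 3 (6.93). The relation within the melanoma cells themselves was not tested.

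**Figure D4:**
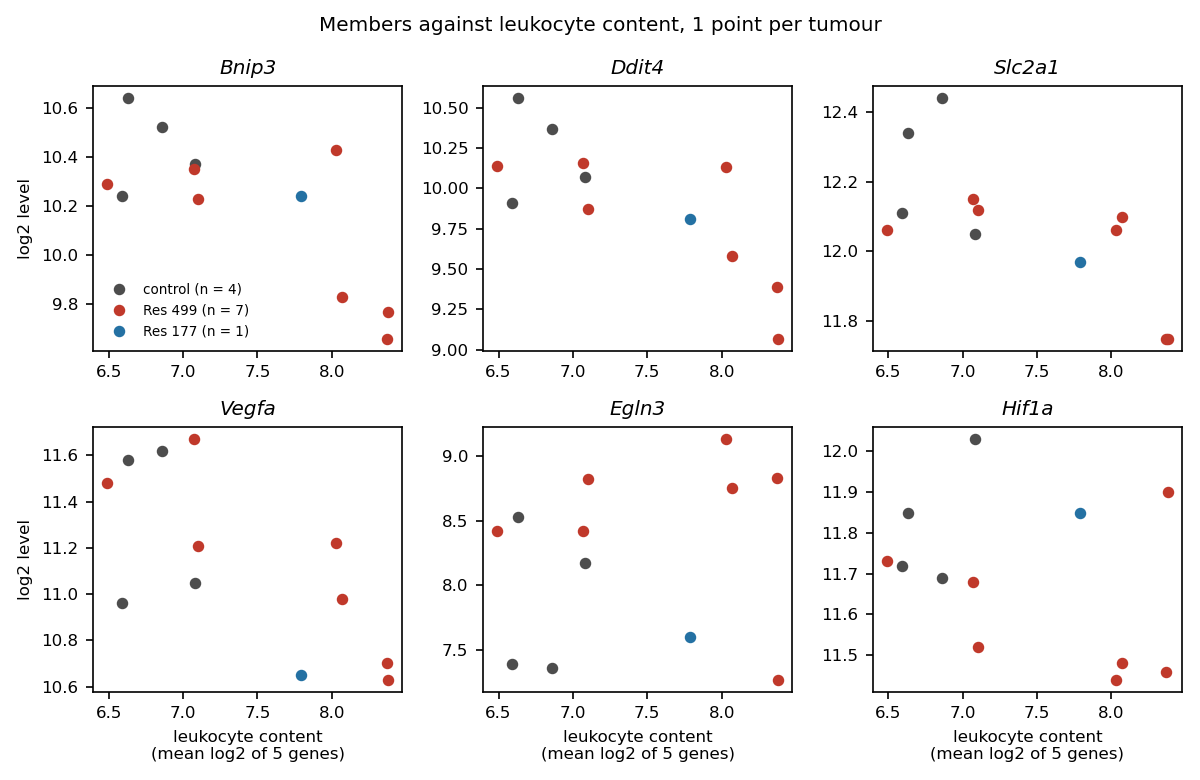
Log2 level of 6 members (vertical axes) against leukocyte content, the mean log2 level of 5 leukocyte genes (horizontal axes), with 1 point per tumour of the first design coloured by group. Res 499 replicates 2 and 3, at the right edge (8.38 and 8.37), hold the lowest levels of Bnip3, Ddit4 and Slc2a1, while Egln3 is high in replicate 3 (8.83) and lowest in replicate 2 (7.27).

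Genes around the members, from lists that do not overlap with them, did not pass either, by the same limma test. Of 14 other parts of the HIF pathway, 7 had negative changes, with a median of 0.01. Arnt, the partner of the alpha subunits, was at 0.03 (SE 0.06) and Vhl, the ligase subunit that recognises them, at -0.02 (SE 0.12). The ends of the list were Ep300, a coactivator, at -0.33 and Eloc at -0.24, and Arnt2 at 0.24 and Os9 at 0.19. Of 31 other hypoxia-induced genes 17 had negative changes, with a median of -0.06. They ranged from Slc2a3, a high-affinity glucose transporter (-0.47), and Ccng2 (-0.45) to Hmox1, the heme oxygenase (0.75, SE 0.31), and Lox, the collagen crosslinking oxidase (0.81, SE 0.68). The smallest adjusted p was that of Dusp1, a MAP kinase phosphatase, at 0.0968 with a change of 0.51.

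Of 16 other glycolysis genes 11 had negative changes (median -0.04). Pfkm, the muscle phosphofructokinase, was at -0.42 (SE 0.16) and Eno3, the muscle enolase, at -0.28. Ldhb, the lactate dehydrogenase subunit of oxidative tissues, was at 0.42 (SE 0.12, limma adjusted p = 0.158), and Hk3, a hexokinase of myeloid cells, also at 0.42. Gapdh was flat, at 13.46 in control and 13.45 in Res 499 tumours. Pyruvate dehydrogenase and TCA cycle genes, which burn the pyruvate that glycolysis makes, had mostly positive changes, although 0 passed. Positive changes were seen in 17 of 20, against 8603 of 16635 genes tested. The median was 0.09, against 0.01 over all genes. The list means overlapped, from 10.65 to 10.88 in control and from 10.79 to 10.99 in Res 499 tumours. Sdhc, a subunit of succinate dehydrogenase (0.36, SE 0.13), and Mpc1, a subunit of the mitochondrial pyruvate carrier (0.26, SE 0.11), led the list. Pdha1 (-0.04) and Idh3g (-0.02) ended it. In Res 177 against control, 13 of 20 were positive on the first design, against 8866 of 16635 genes tested. On the second design 12 of 20 were negative, against 38.2% of 14953 genes.

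The Res 177 tumour of the first design also had low values. In Res 177 against control, 0 of 33 members passed, where 35 of 16635 genes (0.21%) did, and 29 of 33 changes (87.9%) were negative, against 46.7% of all genes. At an unadjusted p under 0.05 there was 1 member (3.03%, against 4.08% of all genes). With a single Res 177 tumour, the limma test assumes that it varies like the tumours of the other groups. In this tumour 15 members were below all 4 controls (45.5%, against 17.5% of all genes) and 0 were above them (22.5% of all genes). The median change was -0.15. In the same tumour keratinocyte markers had a mean of 7.22, against 5.15 to 5.41 in the other tumours, and leukocyte content was 7.79; their part in these values was not tested. With leukocyte content as a covariate, 17 of 33 changes were negative.

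Vegfa stood at 10.65 in this tumour, against 10.96 to 11.62 in the controls, for a change of -0.65 (SE 0.36). Bhlhe40 stood at 10.84, also below the control range of 11.12 to 11.54 (change -0.47, SE 0.27), and Hk1 at 8.88, against 9.28 to 9.49 (change -0.47, SE 0.17). Hk1 had the smallest unadjusted p, 0.0152, which the limma fit adjusted to 1 over all genes. Pdk1 stood at 9.37, below the controls, with a change of -0.41 (SE 0.23). The highest changes were those of Pfkfb3, 0.17 (SE 0.17), Ndrg1, 0.04 (SE 0.36), and P4ha1, 0.04 (SE 0.20), all within the control range.

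On the second design, 1 Res 177 and 1 control tumour allow no test. The difference was negative for 27 of 36 members (75.0%), against 38.2% of 14953 genes, with a median of -0.11 against 0.04. In all, 3 members of 36 (8.33%) differed by more than 0.5 on the log2 scale, against 7.52% of all genes. Egln3 stood at 7.47 in Res 177 and 8.60 in control, a difference of -1.13. Epas1 stood at 8.09 and 8.96 (difference -0.87), and Eno2 at 8.49 and 7.94 (difference 0.55). Aldoc differed by -0.49, Pfkfb3 by 0.46 and Ndrg1 by 0.35. The genes seen only here were close to level: Aldoa, the main aldolase, differed by 0.06, the mitophagy receptor Bnip3l by -0.03 and Ankrd37 by -0.20. Leukocyte content was again higher in the Res 177 tumour, at 8.47 against 7.35.

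These 2 designs share no sample, so that the sign can be compared between them, although the labels do not state separate tumours or mice. Of 33 members, 24 (72.7%) were lower in Res 177 on both, against 24.7% of 13507 genes. Vegfa was at -0.65 and -0.33, Pdk1 at -0.41 and -0.39, Epas1 at -0.45 and -0.87, Aldoc at -0.34 and -0.49, and Ddit4 at -0.41 and -0.31 (first, then second design). Pfkfb3 was higher on both, at 0.17 and 0.46, as were Ndrg1 (0.04 and 0.35) and P4ha1 (0.04 and 0.0039). Hif1a was at 0.03 on the first and -0.26 on the second. For Hk1 the second design had 2 probe sets, which gave -0.10 and -0.62. Each design rests on 1 Res 177 tumour, and with leukocyte content higher in Res 177 on both designs its part in the shared sign was not tested.

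**Figure D5:**
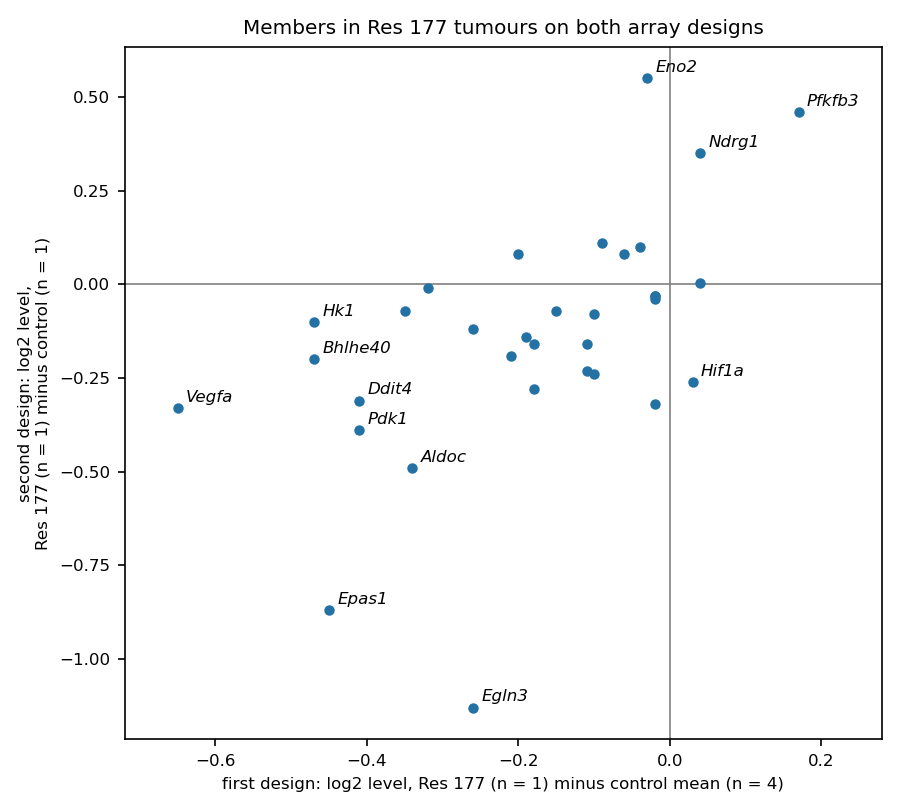
Log2 difference between Res 177 and control for each of the 33 members on the first design (horizontal axis, 1 tumour against the mean of 4) and the second design (vertical axis, 1 tumour against 1). Most points, 24 of 33, lie at the lower left, and Egln3 lies lowest. Pfkfb3, Ndrg1 and, close to 0 on both axes, P4ha1 lie at the upper right.

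The 2 resistant sublines were also set against each other. In Res 499 against Res 177 tumours of the first design, 0 of 33 members passed the limma test, where 0.234% of all genes did, and 0 had an unadjusted p under 0.05, against 2.93% of all genes. The changes were negative for 13 members (39.4%, against 52.5% of all genes) and the median was 0.05. The highest was that of Egln3, 0.92 (SE 0.55, adjusted p = 1). Grouped by response, 8 resistant against 4 sensitive tumours, 0 of 33 members passed, where 0.613% of all genes did, and 7 had an unadjusted p under 0.05, against 13.4% of all genes. Of 33 changes 25 were negative, against 47.6% of all genes, with a median of -0.14. This comparison reuses the same control tumours, and 7 of its 8 resistant tumours are Res 499.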

How the data were processed

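Total RNA of 14 tumours was hybridised to Affymetrix arrays of 2 designs. The deposited values are log2 expression per probe set; the submitters' processing notes name RMA and oligo, and the range of values shows a log2 scale. Software versions and genome build: not given in the sources used here. The designs were normalized separately and were never pooled. Arrays carry no read depth, so the number of tumours limits precision; array medians of the first design lay between 5.70 and 5.80, and its arrays correlated at 0.977 to 0.993.

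Symbols came from GEO's platform annotation. A gene was represented by its probe set of highest mean among those with 1 symbol, and the dimmest 25% of genes (5545 of 22180) were left out. limma 3.58.1 (lmFit, eBayes) in R 4.3.3 tested 16635 genes in a fit of 3 groups, and in a fit of 2 levels by response, with Benjamini-Hochberg adjustment and a threshold of 0.05. On simulated data with these tumours' spread, 190 of 200 genes changed by 1 on the log2 scale were recovered in Res 499 against control. The simulated noise was drawn for each gene separately. The members' changes in that comparison ran from -0.49 to 0.66, and recovery of changes of that size was not tested. Correlations used 100000 permutations. No batch is named in the labels.

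The members, the pathway and marker lists and the tests were chosen with earlier results of these data known. Genes named are those of the 6 smallest p-values and the 3 largest changes each way per comparison, the 3 largest and smallest SDs, 13 genes fixed by name, and, of each pathway list, the 2 largest changes each way with Gapdh, Vhl and Arnt; further members are named for completeness, and Dusp1 was added after its value was seen. Alternatives covered the filter, the choice of probe set, centring, repeated quantile normalization, the eBayes prior, array weights, a leukocyte covariate and leaving out each tumour. Covariates for fibroblast, adipocyte and endothelial markers, and the fit without both tumours of lowest array weight, were chosen after seeing the data.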

Additional observations from a re-analysis of the deposited data

Results flagged for a closer look

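In groups of 4 to 10 tumours, 66 sets of values (33 members in control and in Res 499 tumours) were checked for a tumour far from the rest of its group, and 2 were found, where chance gives about 1 in 20, or 3.3. Egln3 in Res 499 replicate 2 stood at 7.27, while the other 6 Res 499 tumours lay between 8.42 and 9.13. Pgam1 in Res 499 replicate 3 stood at 11.81, while the others lay between 11.98 and 12.09.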

How the results depend on the processing

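The count of members past the threshold was 0 in each comparison under all alternatives run. In Res 499 against control, 18 of 33 members kept their sign over 24 alternatives and 15 did not; the smallest adjusted p of a member was 0.103 (Pfkfb3 with array weights). With leukocyte content as a covariate the changes of Hk2 (0.04), Pfkl (0.01), Ldha (0.12), Vegfa (0.19), Car9 (0.02), Higd1a (0.10), Bhlhe40 (0.07), P4ha2 (0.14), Mxi1 (0.18) and Pkm (0.03) turned positive and that of P4ha1 (-0.05) negative. Of the covariates added after seeing the data, fibroblast markers turned Ldha (0.0003), Pkm (0.0045), P4ha2 (0.03) and Mxi1 (0.04), endothelial markers turned Ldha (0.03), Pkm (0.02), P4ha2 (0.05), Mxi1 (0.06) and P4ha1 (-0.04), and adipocyte markers turned Tpi1 (-0.0036). Members near 0 also turned with array weights (P4ha2 0.01, Mxi1 0.02), centred arrays (P4ha1 -0.004), repeated quantile normalization (Pkm 0.001), the mean of probe sets (Pgam1 0.01, Mxi1 0.06) and without Res 499 replicates 2 and 5 (P4ha2 0.06, Mxi1 0.08). Leaving out 1 tumour gave ranges across 0 for Tpi1 (-0.01 to 0.04), Pgam1 (-0.07 to 0.00089), Eno2 (-0.03 to 0.17), Pkm (-0.03 to 0.02), Pfkfb4 (-0.06 to 0.02), P4ha1 (-0.04 to 0.08), P4ha2 (-0.20 to 0.14) and Mxi1 (-0.09 to 0.07). In Res 177 against control the median change was -0.00011, Ddit4 was at 0.01 and P4ha1 at -0.03 with the leukocyte covariate, Hif1a was at -0.01 with centred arrays and with array weights, and Ndrg1 at -0.01 with the mean of probe sets. There, leaving out 1 tumour gave -0.02 to 0.09 for Hif1a, -0.07 to 0.15 for Ndrg1 and -0.01 to 0.07 for P4ha1. The cause of these turns was not tested.

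Over all genes, the 59 genes past the threshold in Res 499 against control became 356 with array weights, 24 with the leukocyte covariate, 97 with the fibroblast covariate, 103 with the endothelial covariate and 182 without Res 499 replicates 2 and 5; leaving out 1 tumour gave 6 (control replicate 4) to 196 (Res 499 replicate 2). The 102 of resistant against sensitive became 330 with array weights, 34 with the leukocyte covariate and 168 without Res 499 replicates 2 and 5, and 9 (control replicate 4) to 141 (Res 499 replicate 2) with 1 tumour left out. Without the filter on dim genes Res 177 against control had 101 and Res 499 against Res 177 had 113, and with the lowest 50% left out each had 2. No paired analysis was possible because the labels give no replicate numbers, and those used here were assigned in the order of the sample list. Arrays give no counts, so signal over background and the number of tumours limit these values, and no fit of Res 177 could be made without its single tumour.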
